A study of Rattus norvegicus with 3 samples.

Results

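Levels are given here of 9 interferon-stimulated genes (Ifit1, Ifit2, Ifit3, Mx1, Mx2, Isg15, Irf7, Gbp2 and Gbp5), chosen by symbol, of the 17328 genes in the matrices, in single nuclei of injured rat spinal cord. All 9 had at least 1 UMI (unique molecular identifier, 1 counted RNA molecule) in the HGF scaffold and scaffold libraries, and 8 had one in the untreated library. The series holds 3 libraries of wild-type Sprague Dawley rats aged 17 weeks, and each took the lesion epicenter 49 days after spinal cord injury. In the HGF scaffold library a scaffold releasing hepatocyte growth factor (HGF) had been implanted 7 days earlier. In the scaffold library a scaffold had been implanted 7 days earlier, and no HGF is named in its label. The untreated library came from injured cord with no treatment. All 3 groups share the injury, so no uninjured cord stands beside them, and no label names an operation without a scaffold, so surgery and implant cannot be told apart. Each group is 1 library of an unstated number of animals, and no value below has a replicate check. Intervals are 95% intervals of counting error alone.

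Interferons are secreted proteins that cells release on sensing foreign or misplaced nucleic acid, or, for interferon gamma, that lymphocytes release on activation. Their receptors signal through JAK kinases to transcription factors of the STAT family, which switch on many genes through an element in their promoters called the interferon-stimulated response element (ISRE). The products of such genes bind foreign RNA, block viral replication, tag proteins or amplify the response, and in the cord they are induced in glia, vessels and infiltrating white cells. IFIT proteins bind RNA, Mx proteins are GTPases that block viral particles, ISG15 is a ubiquitin-like tag, IRF7 is the transcription factor that amplifies interferon production, and GBPs are GTPases that gather on vacuoles and are induced strongly by interferon gamma.

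The promoter of 5 of the 9 genes was in the RefSeq promoter table of the rat build GRCr8 used here. They are shown because the ISRE is the promoter element introduced above, and because genes with and without a match can be set beside their levels. Each line gives the 100 bases before the gene's start, 5′ to 3′ on the gene's strand, and capitals mark a match to the letters GAAANNGAAA, searched on both strands in 300 bases per promoter (250 before the start and 50 after it). Ifit3 lies at chr1:241527226-241527325 (+), Irf7 at chr1:205800024-205800123 (-), Gbp2 at chr2:234005627-234005726 (+), Gbp5 at chr2:233910899-233910998 (+) and Mx1 at chr11:50294607-50294706 (-), where each range is the stretch printed.
Ifit3: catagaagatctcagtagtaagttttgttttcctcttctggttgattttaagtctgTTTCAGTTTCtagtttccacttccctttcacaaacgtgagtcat
Irf7: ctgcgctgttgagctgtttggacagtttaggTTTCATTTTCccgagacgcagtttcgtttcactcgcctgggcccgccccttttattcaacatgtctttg
Gbp2: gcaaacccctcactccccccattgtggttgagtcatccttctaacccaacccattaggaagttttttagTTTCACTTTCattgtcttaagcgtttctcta
Gbp5: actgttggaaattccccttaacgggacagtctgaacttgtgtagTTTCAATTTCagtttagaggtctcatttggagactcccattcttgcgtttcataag
Mx1: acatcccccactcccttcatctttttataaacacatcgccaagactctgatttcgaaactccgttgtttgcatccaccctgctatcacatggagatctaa
A match was present in 4 of the 5 promoters, in each case read on the strand opposite to the gene. It began 44 bases before the start in Ifit3, 69 in Irf7, 31 in Gbp2 and 56 in Gbp5. The Mx1 window held no match, and the same letters were in 1312 of 33469 rat promoters of the same length, 3.92%. A second motif, TTCNNNGAA, the gamma-activated site of interferon gamma targets, searched in the same way, was in 2970 of the 33469 promoters (8.87%) and in 0 of the 5. These matches describe letters only.

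The matrices held 906 nuclei in the HGF scaffold library, 2168 in the scaffold library and 2252 in the untreated library, and 905, 2167 and 2248 of them passed the filters. The total was 1450757, 5791715 and 5953189 UMIs, with medians of 1047, 1639 and 1407.5 UMIs per nucleus. Macrophage-list markers summed to 10073, 7829 and 1838 CPM (counts-per-million values, a gene's UMIs scaled to the summed UMIs of all genes), and myeloid-like nuclei, named from microglia and macrophage markers, were 35.9%, 22.6% and 10.3% of the nuclei. The scaffold and untreated libraries shared 3 cell barcodes, the HGF scaffold and scaffold libraries 1, and the HGF scaffold and untreated libraries 0. Nuclei with at least 3 markers of each of 5 or more lineages, called mixed nuclei below, were 58, 527 and 432. They held 22.6%, 53.9% and 50.4% of all UMIs. Nuclei with the markers of cord tissue were present in each library: neuron-like nuclei were 3.54%, 8.72% and 7.12% and oligodendrocyte-like nuclei 10.2%, 6.55% and 8.05%.

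Over all nuclei, Ifit3 and, at lower counts, Isg15 were higher in both implanted cords than in the untreated one, while Mx2 and Ifit2 lay lower in the scaffold library than in the untreated library and Gbp2 and Gbp5 were higher in the HGF scaffold library than in the scaffold library. The 9 genes summed to 204 UMIs (141 CPM, 122 to 162) in the HGF scaffold library, 497 UMIs (85.9 CPM, 78.5 to 93.8) in the scaffold library and 494 UMIs (83.1 CPM, 75.9 to 90.7) in the untreated library. The sum was thus highest in the HGF scaffold library, at 1.64 times the scaffold library (1.39 to 1.93) and 1.70 times the untreated library (1.43 to 1.9998). Scaffold and untreated libraries had a ratio of 1.03 (0.911 to 1.17), which became 0.761 (0.662 to 0.874) for the other 8 genes once Ifit3 was left out. In sums over a library, fewer cells of a type and less RNA per cell cannot be told apart.

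**Figure D1:**
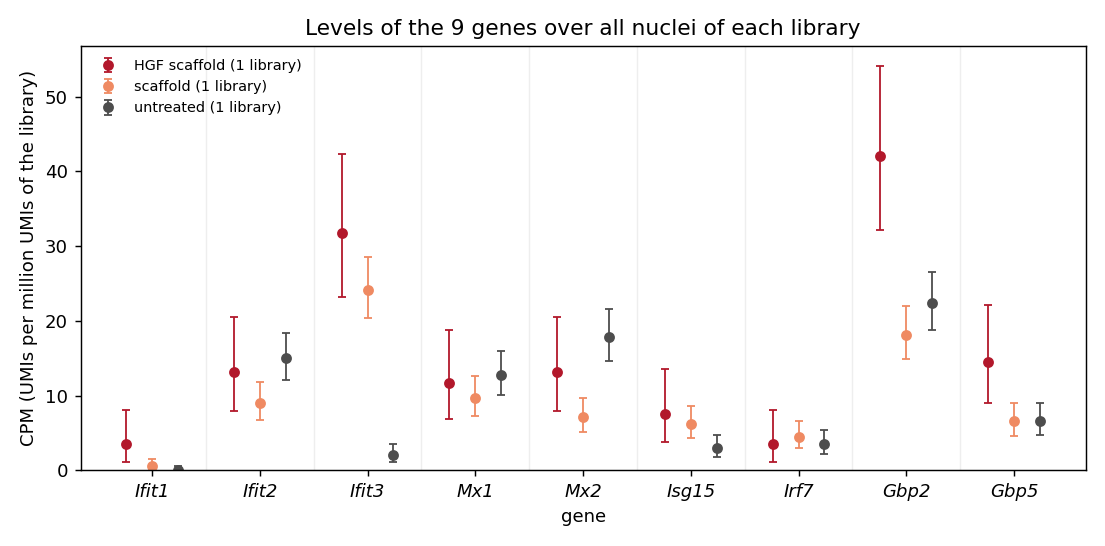
CPM of each of the 9 genes (y axis) over all nuclei of the HGF scaffold, scaffold and untreated libraries, 1 library each; bars are exact Poisson 95% intervals. Ifit3 stands at 31.8 and 24.2 CPM in the implanted libraries against 2.02 CPM in the untreated library, while Mx2 is lowest in the scaffold library at 7.08 CPM.

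A ratio between libraries is read as past 2-fold at 2 or more or at 0.5 or less, among genes with at least 20 UMIs in the libraries compared, which 8 of the 9 members had in each comparison. Between scaffold and untreated cord, 2 of the 8 were past 2-fold higher (Ifit3 and Isg15), beside 7.12% of all 11931 genes that met the minimum. In the same comparison 1 was past 2-fold lower (Mx2), beside 3.96% of all genes. Between HGF scaffold and scaffold cord, 2 of 8 were past 2-fold higher (Gbp2 and Gbp5), beside 2.15% of 11329 genes, and 0 were lower, beside 5.46%. Between HGF scaffold and untreated cord, 3 of 8 were past 2-fold higher (Ifit3, Isg15 and Gbp5), beside 9.27% of 11473 genes, and 0 were lower, beside 11.5%. These 3 comparisons share libraries. The median log2 ratio of the 8 was -0.15, 0.47 and 0.44 in the same order of comparisons, beside 0.04, 0.02 and 0.07 for all genes.

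Of the IFIT genes, Ifit3 had 46 UMIs (31.8 CPM, 23.2 to 42.4) in the HGF scaffold library, 140 UMIs (24.2 CPM, 20.3 to 28.5) in the scaffold library and 12 UMIs (2.02 CPM, 1.04 to 3.52) in the untreated library. The interval of the untreated library did not reach either implanted library, and the implanted libraries' intervals overlapped. The ratio was 15.7 (8.20 to 32.6) for HGF scaffold over untreated, 11.99 (6.65 to 23.8) for scaffold over untreated and 1.31 (0.920 to 1.84) for HGF scaffold over scaffold. Ifit2, a neighbour of the same family, had 19, 52 and 89 UMIs, which are 13.1 CPM in the HGF scaffold library, 8.98 CPM in the scaffold library and 14.96 CPM in the untreated library. Its scaffold level was below the untreated one, with a ratio of 0.600 (0.418 to 0.855), in contrast to Ifit3 in the same libraries. Outside a cluster led by Cxcl2, described below, this Ifit2 ratio was 0.580 (0.391 to 0.849). With mixed nuclei also left out it was 0.723 (0.410 to 1.25), from 23 against 37 UMIs, an interval that holds 1. Ifit1 had 5 UMIs in the HGF scaffold library, 3 in the scaffold library and 0 in the untreated library, where a count of 0 allows up to 0.504 CPM. Its level in the HGF scaffold library, 3.45 CPM, was at least 6.84-fold higher than the untreated library's limit of 3 counts, or at least 3.76-fold higher with the counting error of its 5 UMIs included, and 6.66 times the scaffold level (1.30 to 42.9); no such ratio is given for scaffold over untreated, with 3 counts against 0.

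Of the Mx GTPases, Mx2 had 19 UMIs (13.1 CPM, 7.90 to 20.5) in the HGF scaffold library, 41 UMIs (7.08 CPM, 5.08 to 9.61) in the scaffold library and 106 UMIs (17.8 CPM, 14.6 to 21.6) in the untreated library. The scaffold level was the lowest of the 3, and its interval lay below that of untreated cord. The ratio was 0.397 (0.270 to 0.575) for scaffold over untreated, 0.736 (0.426 to 1.21) for HGF scaffold over untreated and 1.85 (1.02 to 3.26) for HGF scaffold over scaffold. Mx1 had 11.7, 9.67 and 12.8 CPM in the HGF scaffold, scaffold and untreated libraries, from 17, 56 and 76 UMIs. These Mx1 intervals all overlapped, and its ratios lay between 0.757 and 1.21.

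Isg15, the ubiquitin-like modifier, had 11 UMIs (7.59 CPM) in the HGF scaffold library, 36 UMIs (6.22 CPM) in the scaffold library and 18 UMIs (3.03 CPM) in the untreated library. Both implanted libraries were above the untreated one, at ratios of 2.51 (1.07 to 5.61) and 2.05 (1.14 to 3.84), but 1 nucleus held 5 of the 11 UMIs of the HGF scaffold library and another 5 of the 36 of the scaffold library. Without its highest nucleus the level was 4.14 CPM in the HGF scaffold library, 5.36 CPM in the scaffold library and 2.70 CPM in the untreated library. Outside a cluster of 191 nuclei led by Cxcl2 the Isg15 ratios over untreated were 1.47 (0.478 to 3.87) for HGF scaffold and 1.40 (0.703 to 2.81) for scaffold, so neither was past 2-fold. With that cluster kept and mixed nuclei left out, the ratio was 2.34 (0.784 to 6.82) for HGF scaffold, from 8 against 9 UMIs. For scaffold it was 3.07 (1.39 to 7.47), from 25 against 9 UMIs. Irf7, the transcription factor, had 5, 26 and 21 UMIs, or 3.45, 4.49 and 3.53 CPM in the HGF scaffold, scaffold and untreated libraries. The Irf7 intervals overlapped widely, and the ratio of HGF scaffold over scaffold, 0.768, had an interval of 0.230 to 2.03.

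Of the guanylate-binding proteins, Gbp2 had 61 UMIs (42.1 CPM, 32.2 to 54.1) in the HGF scaffold library, 105 UMIs (18.1 CPM, 14.8 to 21.96) in the scaffold library and 133 UMIs (22.4 CPM, 18.7 to 26.5) in the untreated library. The HGF scaffold library stood above both others, whose intervals overlapped, at 2.32 times the scaffold level (1.66 to 3.21) and 1.88 times the untreated level (1.37 to 2.57). Gbp5 had 21, 38 and 39 UMIs, which are 14.5 CPM in the HGF scaffold library and 6.56 CPM in each of the scaffold and untreated libraries. The Gbp5 ratio was 2.21 (1.23 to 3.86) over scaffold and 2.21 (1.24 to 3.85) over untreated. Outside the cluster led by Cxcl2 it was 1.92 (0.997 to 3.58) over scaffold and 1.92 (1.02 to 3.48) over untreated, so neither was past 2-fold. With mixed nuclei left out, the HGF scaffold over scaffold ratio of Gbp2 was just under 2, at 42 against 50 UMIs (1.29 to 3.07), and that of Gbp5 was 2.38 (1.11 to 5.08), from 16 UMIs in each library.

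By lineage, the Ifit3 UMIs were concentrated in 1 cluster of 191 nuclei led by Cxcl2, G0s2, Ccl3, Il1b and Slpi, genes of activated neutrophils and inflammatory macrophages. That cluster held 23 nuclei of the HGF scaffold library, 167 of the scaffold library and 1 of the untreated library. Its name is not settled. Neutrophil-list genes S100a9 (41.4% of its nuclei with a UMI) and Csf3r (23.0%) were present. Macrophage-list genes Lyz2 (75.4%), Itgam (70.2%) and Adgre1 (61.8%) were there too. Outside the cluster the shares were 5.83% and 4.17%, and 28.6%, 24.6% and 21.8%, in the same order. S100a9 had 317 CPM inside against 50.4 outside, and Csf3r 54.7 against 19.7. Lyz2 had 514 CPM inside against 302 outside, Itgam 410 against 227 and Adgre1 477 against 237. Ltf and Mpo, proteins of neutrophil granules, had 0 UMIs inside, but only 3 and 1 outside, too few to read. The other neutrophil-list genes were all higher inside, such as Cxcr2 (13.7 against 2.16 CPM) and Camp (8.55 against 0.583), from 16 and 10 UMIs inside. Macrophage-list genes Cd163 (8.55 against 9.40 CPM) and F13a1 (11.97 against 16.7) were lower inside. So were C1qa (53.02 against 63.9) and C1qb (40.2 against 44.6), while the others listed were higher. This group of nuclei is called the Cxcl2 cluster here. Its median UMI count was 4402, and a finer clustering gave 2 clusters led by Cxcl2, of 137 nuclei named from myeloid markers and 81 named from neutrophil markers.

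In the Cxcl2 cluster Ifit3 had 15 of the 46 UMIs of the HGF scaffold library (149.5 CPM, 83.7 to 247) and 86 of the 140 UMIs of the scaffold library (80.5 CPM, 64.4 to 99.5). In the HGF scaffold library 10 of the 15 lay in 1 nucleus of 600 UMIs. In the cluster named from neutrophil markers at the finer clustering, the Ifit3 level was 874 CPM in the HGF scaffold library and 324 CPM in the scaffold library, so the level depends on where the cluster is bounded. Outside the cluster, Ifit3 had 31 UMIs (23.0 CPM, 15.6 to 32.6) in the HGF scaffold library, 54 UMIs (11.4 CPM, 8.59 to 14.9) in the scaffold library and 12 UMIs (2.02 CPM, 1.04 to 3.53) in the untreated library. The outside ratio was 11.4 (5.69 to 24.4) for HGF scaffold over untreated and 5.67 (2.99 to 11.6) for scaffold over untreated. With mixed nuclei also left out it was 6.59 (2.60 to 18.8) and 2.99 (1.19 to 8.48). Inside the cluster the level was higher without mixed nuclei, with 13 UMIs in 15 nuclei of the HGF scaffold library (372 CPM) and 41 UMIs in 65 nuclei of the scaffold library (298.8 CPM).

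The leading genes of the cluster also had UMIs in nuclei outside it, and their counts are given beside Ifit3. Inside the cluster there were 4.31 Ifit3 UMIs per 100 UMIs of the 5 leading genes in the HGF scaffold library and 2.04 in the scaffold library. Outside it there were 5.89, 3.51 and 13.0 in the HGF scaffold, scaffold and untreated libraries, where the last rests on 12 Ifit3 UMIs against 92. The leading genes themselves had 411 CPM in neuron-like nuclei of the scaffold library against 8.57 CPM in those of the untreated library, and 3944 CPM inside the cluster in the scaffold library. In outside nuclei without a UMI of any of the 5 leading genes, Ifit3 had 12.5 CPM in the HGF scaffold library, 7.57 CPM in the scaffold library and 2.01 CPM in the untreated library. Those nuclei gave ratios of 6.25 (2.46 to 15.9) and 3.77 (1.72 to 8.72) over untreated. The part of free RNA in the remaining difference was not tested.

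**Figure D2:**
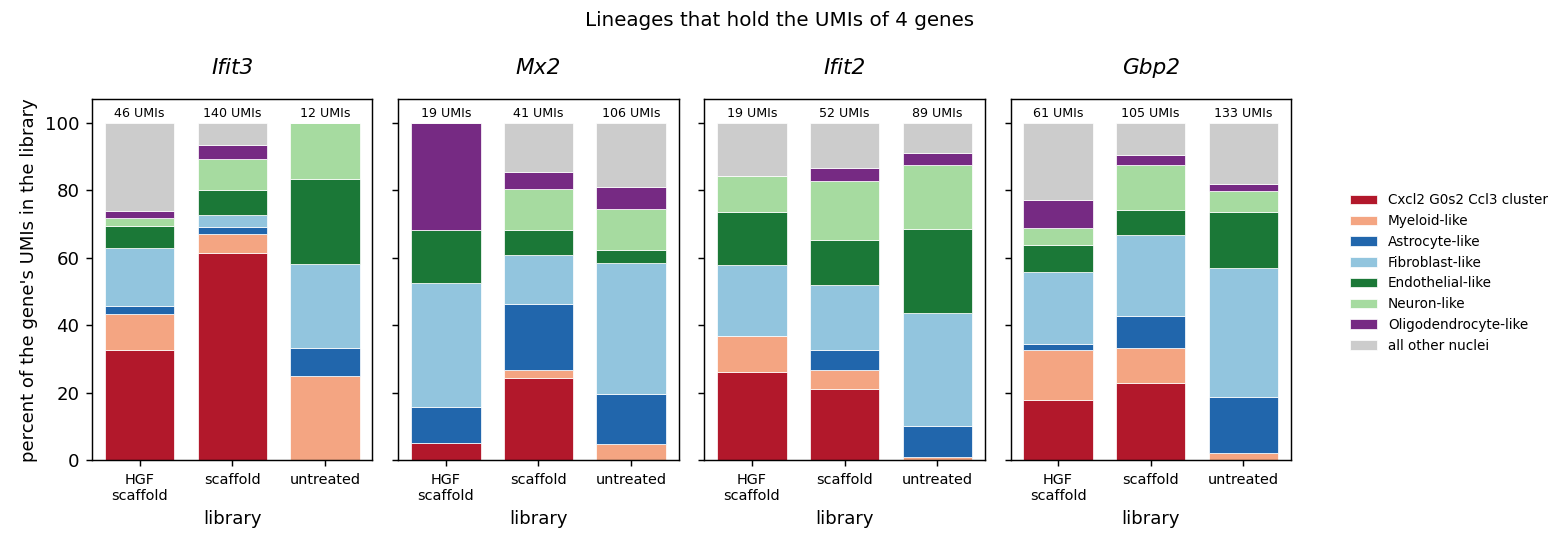
Percent of the UMIs of Ifit3, Mx2, Ifit2 and Gbp2 (y axis) that lie in nuclei of each lineage, for the HGF scaffold, scaffold and untreated libraries; the number over each bar is the gene's UMI count. The Cxcl2 cluster holds 86 of 140 Ifit3 UMIs in the scaffold library, while fibroblast-like nuclei hold 41 of 106 Mx2 UMIs in the untreated library.

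In the other lineages Ifit3 counts were small. Fibroblast-like nuclei had 8 UMIs (28.2 CPM) in the HGF scaffold library, 5 UMIs (5.63 CPM) in the scaffold library and 3 UMIs (1.70 CPM) in the untreated library. Endothelial-like nuclei had 3 UMIs (16.4 CPM), 10 UMIs (27.1 CPM) and 3 UMIs (4.19 CPM) in the same libraries, and the 10 of the scaffold library and 3 of the HGF scaffold library all lay in mixed nuclei. Neuron-like nuclei had 1, 13 and 2 UMIs, of which 12 of the 13 lay in mixed nuclei. Myeloid-like nuclei, which share markers with the Cxcl2 cluster, had 12.2, 8.17 and 15.1 CPM in the HGF scaffold, scaffold and untreated libraries, with intervals that overlapped. In 1 ependymal-like nucleus of the HGF scaffold library there were 6 Ifit3 and 4 Gbp2 UMIs.

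Mx2 followed another distribution, with its highest level in astrocyte-like nuclei among the classes of at least 20 nuclei in a library. In untreated cord 6 skeletal muscle-like nuclei, below that limit, held 7 Mx2 UMIs. Astrocyte-like nuclei had 2 Mx2 UMIs (122 CPM, 14.8 to 440) in the HGF scaffold library, 8 UMIs (34.5 CPM, 14.9 to 68.0) in the scaffold library and 16 UMIs (66.8 CPM, 38.2 to 108) in the untreated library. The scaffold value was the lowest, but all 3 intervals overlapped. Fibroblast-like nuclei, which held 41 of the 106 Mx2 UMIs of untreated cord, had 7 UMIs (24.7 CPM), 6 UMIs (6.76 CPM) and 41 UMIs (23.3 CPM) in the HGF scaffold, scaffold and untreated libraries. There the scaffold over untreated ratio was 0.291 (0.101 to 0.689), and with mixed nuclei left out the levels were 4.91 CPM (1 UMI) in the HGF scaffold library, 5.41 CPM in the scaffold library and 17.4 CPM in the untreated library. The HGF scaffold level in fibroblast-like nuclei thus rested on mixed nuclei for 6 of its 7 UMIs. Fibroblast-like nuclei were 19.0%, 25.1% and 39.6% of the 3 libraries, so their share moved as well as their level. The 5 fibroblast-like clusters had different leading genes, and the Mx2 UMIs of the untreated library lay in 4 of them.

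Isg15 and Gbp2 had UMIs in both astrocyte-like nuclei and the Cxcl2 cluster. In that cluster Isg15 had 5 of the 11 UMIs of the HGF scaffold library (49.8 CPM). All 5 lay in 1 nucleus of 600 UMIs, the same that held 10 Ifit3 UMIs. Of the scaffold library, 16 of the 36 Isg15 UMIs lay in the cluster (14.99 CPM, 8.57 to 24.3). Without mixed nuclei its Isg15 level was 143 CPM in the HGF scaffold library and 87.5 CPM in the scaffold library. Isg15 had 6 UMIs (25.9 CPM) in astrocyte-like nuclei of the scaffold library and 7 UMIs (29.2 CPM) in those of the untreated library, against 0 UMIs in oligodendrocyte-like, OPC-like (oligodendrocyte precursor), Schwann cell-like, T or NK cell-like, mural-like, ependymal-like and skeletal muscle-like nuclei of all 3 libraries. Gbp2 had 1 UMI (61.0 CPM), 10 UMIs (43.1 CPM, 20.7 to 79.3) and 22 UMIs (91.8 CPM, 57.5 to 139) in astrocyte-like nuclei of the HGF scaffold, scaffold and untreated libraries. With nuclei named by their highest marker score instead, the astrocyte level of Gbp2 was 74.95 CPM in the scaffold library and 51.8 CPM in the untreated library, the opposite order. The HGF scaffold library held only 21 astrocyte-like nuclei, so its astrocyte values rest on 0 to 2 UMIs a gene. In the Cxcl2 cluster Gbp2 had 11 UMIs (109.7 CPM, 54.7 to 196) in the HGF scaffold library and 24 UMIs (22.5 CPM, 14.4 to 33.4) in the scaffold library, a ratio of 4.88 (2.16 to 10.3). At the finer clustering these levels were 403 and 22.8 CPM. T or NK cell-like nuclei had 3 Gbp2 UMIs in 8 nuclei of the HGF scaffold library, 4 UMIs in 40 nuclei of the scaffold library (67.4 CPM, 18.4 to 172) and 0 UMIs in 17 nuclei of the untreated library. Outside the cluster the Gbp2 ratio of HGF scaffold over scaffold was 2.16 (1.49 to 3.11). Myeloid-like nuclei had 21.95, 11.2 and 15.1 Gbp2 CPM in the HGF scaffold, scaffold and untreated libraries, with overlapping intervals.

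Ifit2 had 16.4, 19.0 and 30.7 CPM in endothelial-like nuclei of the HGF scaffold, scaffold and untreated libraries, from 3, 7 and 22 UMIs, and at most 5.03 CPM in myeloid-like nuclei of any library. Mx1 had 24.8, 21.6 and 19.6 CPM in oligodendrocyte-like nuclei, from 3, 9 and 12 UMIs. These 3 values lay close together and their intervals overlapped. Mx1 in myeloid-like nuclei was 17.1, 8.17 and 40.2 CPM, but the clusters behind that class differ: 296 of 325 nuclei of the HGF scaffold library were in a cluster with Arg1 and Itgam among its leading genes, and 216 of 231 nuclei of the untreated library in a cluster led by Alpk3 and Blnk. Gbp5 had 14.1, 11.3 and 3.97 CPM in fibroblast-like nuclei of the 3 libraries, from 4, 10 and 7 UMIs. Its HGF scaffold over scaffold ratio there was 1.25 (0.287 to 4.34), so the interval holds both 1 and the whole-library value. Irf7 never exceeded 6 UMIs in any lineage of any library.

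**Figure D3:**
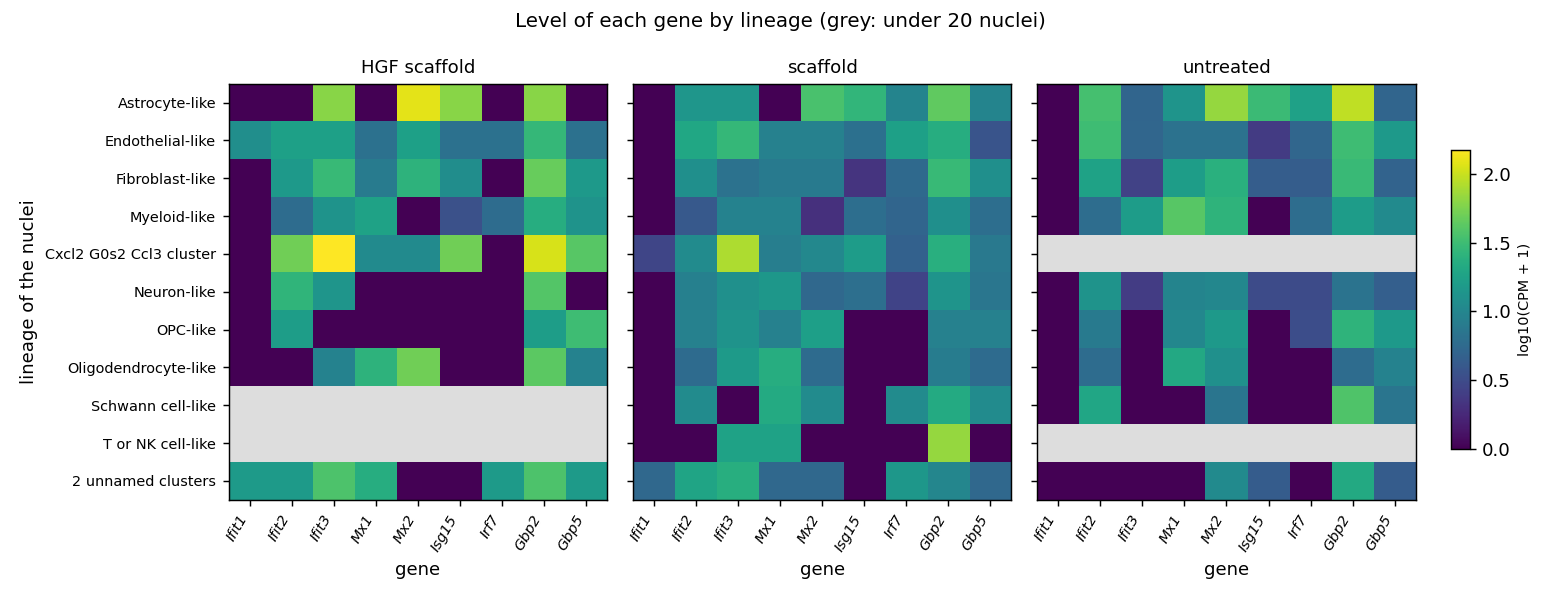
Level of each gene (x axis) in each lineage (y axis) as log10(CPM + 1), 1 panel per library; grey cells have under 20 nuclei. Ifit3 is brightest in the Cxcl2 cluster of the implanted libraries and Mx2 in astrocyte-like nuclei of all 3 libraries, while Gbp2 is brightest in astrocyte-like nuclei of the untreated library alone, and many cells of the HGF scaffold panel rest on 0 or 1 UMI.

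Few nuclei had UMIs of more than 1 of the 9 genes. Each gene was detected in at most 5.41% of the nuclei of any library. The share with several members that unrelated counts would give was not computed. A UMI of at least 1 of the 9 was found in 14.3% of nuclei of the HGF scaffold library, 15.2% of the scaffold library and 14.7% of the untreated library. After thinning every nucleus to 500 UMIs the shares were 6.52% (4.9995 to 8.33), 5.12% (4.23 to 6.14) and 5.16% (4.28 to 6.16), with intervals that overlapped. At least 2 members occurred in 20, 62 and 51 nuclei, and at least 4 in 1, 4 and 3. Of those 8 nuclei, 6 were mixed nuclei. The 2 that were not are an endothelial-like nucleus of the scaffold library with 1 UMI each of Ifit2, Mx1, Isg15 and Irf7 in 2085 UMIs, and an astrocyte-like nucleus of the untreated library with 6 member UMIs in 1183. Another astrocyte-like nucleus of the untreated library, which was mixed, had 8 member UMIs of 5 genes in 2641. The limit of 4 members leaves out the nucleus with the most member UMIs, 17 of the 204 of the HGF scaffold library. It lay in the Cxcl2 cluster and held 10 Ifit3 and 5 Isg15 UMIs in 600 UMIs. No lineage is known to lack these genes, so no background share could be set.

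Correlations between members were computed across 24 lineage and library sums of at least 50 nuclei, which share libraries and depth. The Pearson correlations of log2(CPM + 10) over the 36 pairs ran from -0.34 to 0.56 with a median of 0.10. Members were not held to the minimum of 100 UMIs that the other genes met. Ifit1 had 5, 3 and 0 UMIs and Irf7 5, 26 and 21 in the whole HGF scaffold, scaffold and untreated libraries. At such counts a low correlation cannot show that members vary separately. The 5 other genes whose profile was most like the mean of the 9, among 9733 genes, were Bst2 (r = 0.81), Gorasp2 (0.80), Pfdn5 (0.79), Dstn (0.75) and Chi3l1 (0.75). Bst2 encodes tetherin, an interferon-induced protein that holds budding virus at the membrane, and Chi3l1 is a secreted protein of reactive astrocytes. For Ifit3 alone the nearest genes were S100a9 (0.88), Slpi (0.85) and Ets2 (0.83), where S100a9 and Slpi are leading genes of the Cxcl2 cluster. Of that cluster the 24 sums hold only that of the scaffold library, with 167 nuclei, and its weight in these correlations was not tested.

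The pathway upstream showed receptors at higher levels in implanted cord and almost no ligand. Of the 12 interferon ligands listed, 6 were in the matrices, and Ifna1, Ifna2, Ifna4, Ifnb1 and Ifng had 0 UMIs in every library, which allows up to 2.07 CPM in the HGF scaffold library, 0.518 CPM in the scaffold library and 0.504 CPM in the untreated library. Ifnk, a type I interferon of epithelia, had 1, 4 and 12 UMIs. Ifnar1, a chain of the type I receptor, had 237, 245 and 96.3 CPM in the HGF scaffold, scaffold and untreated libraries, and Ifngr1, the ligand-binding chain of the interferon gamma receptor, 229.9, 221 and 109 CPM. Both were higher in the 2 implanted libraries, as was Ifngr2, the second chain, with 77.3, 81.9 and 39.5 CPM. Ifnlr1, the interferon lambda receptor, ran the other way with 7.59, 16.6 and 25.6 CPM, and its partner Il10rb had 41.4, 29.5 and 18.3 CPM.

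Of the kinases, Jak1 had 394, 338 and 244 CPM, Jak2 211, 213 and 124 CPM, and Tyk2 96.6, 70.1 and 44.1 CPM in the HGF scaffold, scaffold and untreated libraries. Of the transducers, Stat2 had 42.1, 40.4 and 30.8 CPM, Stat3 362, 367 and 283 CPM, and Irf9 12.4, 10.5 and 7.06 CPM. The untreated library was thus the lowest of the 3 for each of these 6 genes, by less than 2-fold except for Tyk2 in the HGF scaffold library.

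Within lineages, Ifnar1 was higher in the scaffold than in the untreated library in 9 of the 9 classes with at least 20 UMIs, with an interval above 1 in all 9. Neuron-like nuclei had 171 CPM in the scaffold library against 76.4 CPM in the untreated library, and myeloid-like nuclei 388 against 231 CPM. Ifngr1 was higher in 8 of 9 classes, with an interval above 1 in 7, but lower in myeloid-like nuclei, at 309 CPM in the scaffold library against 402 CPM in the untreated library (0.767, 0.597 to 0.994). The myeloid-like nuclei of the 2 libraries lie in different clusters, with 368 of 489 in the Arg1 and Itgam cluster in the scaffold library against 15 of 231 in the untreated library. For HGF scaffold over untreated cord fewer intervals lay above 1. Ifnar1 was higher in 7 of 8 such classes, with an interval above 1 in 4. Ifngr1 was also higher in 7 of 8, but with an interval above 1 in only 1. Macrophage-list markers moved the same way across classes, those that should lack them included: neuron-like nuclei had 4585, 4026 and 1104 CPM of them in the HGF scaffold, scaffold and untreated libraries, and myeloid-like nuclei 16183, 14773 and 8422 CPM. Their part in these lineage values was not tested.

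**Figure D4:**
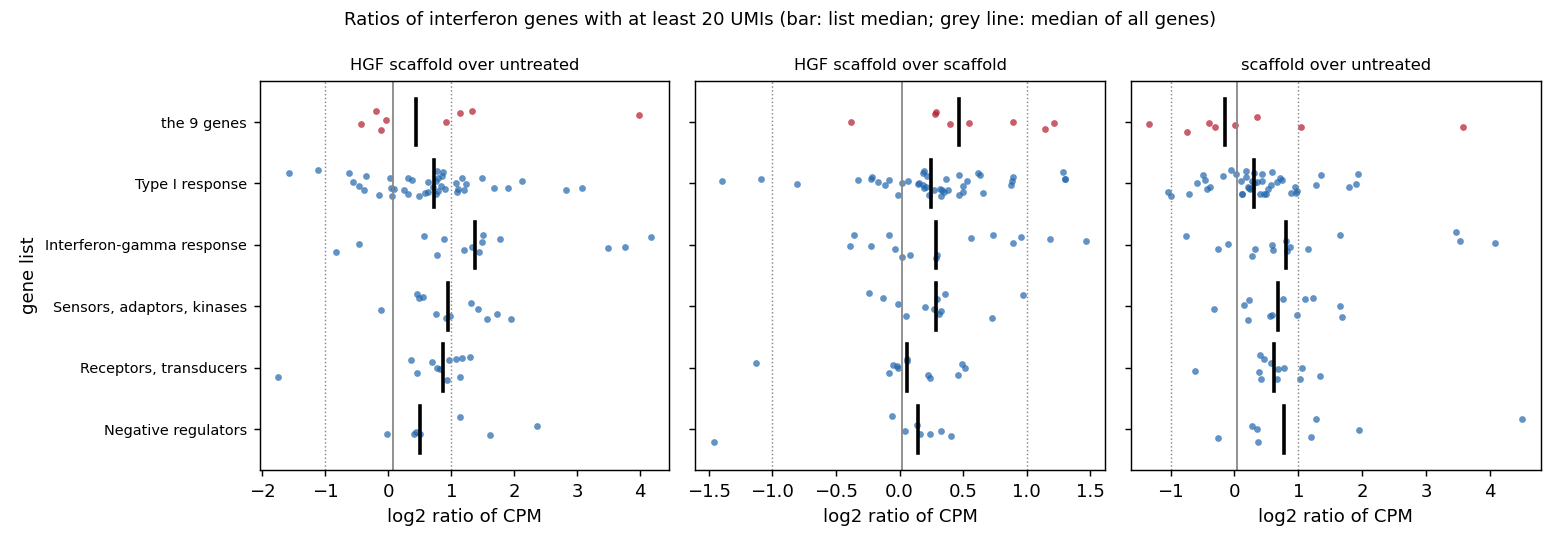
log2 ratio of CPM (x axis) of each gene with at least 20 UMIs in the libraries compared, by list (y axis), for HGF scaffold over untreated, HGF scaffold over scaffold and scaffold over untreated; black bars are list medians, grey lines the median of all genes, dotted lines 2-fold. Of the 9 genes the 8 with enough UMIs are drawn: Ifit3 lies far right in the 2 panels that compare with untreated cord, and all but Irf7 lie above 0 in HGF scaffold over scaffold.

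Wider lists of interferon genes, chosen by role, were read the same way, beside the same shares of all genes: 7.12% higher and 3.96% lower in scaffold over untreated cord, 2.15% and 5.46% in HGF scaffold over scaffold cord, and 9.27% and 11.5% in HGF scaffold over untreated cord. Of 44 genes of the type I response with enough UMIs, 5 were past 2-fold higher and 1 lower in scaffold over untreated cord, with a median log2 ratio of 0.30 beside 0.04 for all genes. The interferon gamma list had 5 of 15 higher and 0 lower (median 0.81), the sensors and their adaptors 4 of 12 higher and 0 lower (0.68), the receptors and transducers 3 of 12 higher and 0 lower (0.62), and the negative regulators 4 of 8 higher and 0 lower (0.78). In HGF scaffold over scaffold cord the same lists had 3 of 42 higher and 2 lower, 2 of 15 and 0, 0 of 12 and 0, 0 of 12 and 1, and 0 of 8 and 1. In HGF scaffold over untreated cord they had 12 of 42 higher and 2 lower, 9 of 14 and 0, 5 of 12 and 0, 4 of 12 and 1, and 3 of 7 and 0.

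Of the listed genes, 6 higher ones and 1 lower one are named for scaffold over untreated cord. Socs3, a feedback inhibitor of STAT3, had 22 UMIs in the scaffold library and 1 in the untreated library, a ratio of 22.6 (3.65 to 933). Pdcd1lg2 and Cd274, which encode the 2 ligands of the inhibitory receptor PD-1, had ratios of 17.0 (8.36 to 40.1) and 11.53 (8.52 to 15.9). Fcgr1a, a high-affinity antibody receptor of myeloid cells, had 11.1 (7.42 to 17.3), and Ptpn6 and Mnda, genes of blood cells, 3.87 and 3.82. Rtp4, a chaperone for receptor transport, was lower, at 4.84 CPM in the scaffold library and 9.92 CPM in the untreated library. The same comparison of HGF scaffold with untreated cord gave 18.0 for Pdcd1lg2, 13.6 for Fcgr1a, 11.2 for Cd274, 8.47 for the Schlafen family gene Slfn3, 7.04 for Mnda and 5.12 for Ptpn6. Lower in it were Ifnlr1 at 0.297, Ube2l6, an enzyme that attaches ISG15, at 0.335 (4 against 49 UMIs), and Ifitm3, an inhibitor of viral entry, at 0.463 (0.290 to 0.707). The myeloid share of nuclei, 35.9%, 22.6% and 10.3% in the HGF scaffold, scaffold and untreated libraries, moved with most of these genes, and its part was not tested.

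Between HGF scaffold and scaffold cord, 5 listed genes past 2-fold higher and 4 lower are named. Igtp, an interferon-induced GTPase, had 58 UMIs (40.0 CPM) in the HGF scaffold library and 102 UMIs (17.6 CPM) in the scaffold library, a ratio of 2.27 (1.62 to 3.17). Ifi47 had 29 UMIs (20.02 CPM) against 47 UMIs (8.12 CPM), a ratio of 2.47 (1.496 to 3.999). Other interferon-induced GTPases of the lists were not past 2-fold: Irgm had 15 against 77 UMIs, a ratio of 0.778 (0.416 to 1.36), and Gbp4 had 7 against 19 UMIs, a ratio of 1.47 (0.523 to 3.66). Cxcl10, a chemokine for T cells, had 9 against 13 UMIs (2.77, 1.04 to 7.00) and Zbp1, a sensor of nucleic acid, 8 against 13 UMIs (2.46, 0.883 to 6.40). Slfn3 had 1003 CPM in the HGF scaffold library and 412 CPM in the scaffold library, a ratio of 2.43. Past 2-fold lower were Socs3 (2 against 22 UMIs), Oas1a (2 against 21), Ube2l6 (4 against 34) and Ifnlr1 (11 against 96), and the intervals of the first 3 ratios held 1. T or NK cell-like nuclei, the main known source of interferon gamma, were 0.884%, 1.85% and 0.756% of the HGF scaffold, scaffold and untreated libraries.

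Usp18, the protease that removes ISG15 and restrains the type I receptor, was singled out after its values were seen. It had 105 UMIs (72.5 CPM) in the HGF scaffold library, 334 UMIs (57.7 CPM) in the scaffold library and 141 UMIs (23.7 CPM) in the untreated library. Both implanted libraries stood above untreated cord, at ratios of 3.06 (2.35 to 3.96) and 2.43 (1.99 to 2.98). In the scaffold library it was above the untreated library in 6 of the 6 classes with at least 20 UMIs, with an interval above 1 in 3. Oligodendrocyte-like nuclei had 82.6, 64.9 and 21.3 CPM in the HGF scaffold, scaffold and untreated libraries, and endothelial-like nuclei 82.2, 43.4 and 15.4 CPM. Myeloid-like nuclei had 92.7, 96.0 and 55.3 CPM. Macrophage-list markers had 4747, 6204 and 2084 CPM in oligodendrocyte-like nuclei and 7587, 6155 and 1455 CPM in endothelial-like nuclei of the same libraries, and their part in these Usp18 values was not tested. Mx2 and Ifit2 over all nuclei did not share this order, with their highest level in the untreated library.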

How the data were processed

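Per the labels' protocols, isolated nuclei were put through 10x Genomics 3′ chemistry and read from both ends. The deposited matrices hold whole-number UMI counts per gene and nucleus, not normalized, for which the submitters' processing notes name Cell Ranger 6.0.1; genome build and annotation are not given in the sources used here. A nucleus needed 200 detected genes and a mitochondrial share no higher than 5%; after that and the removal of called doublets, 5320 of 5326 remained. The doublet caller marked only 2 nuclei (0.0376%), so it did not work, and nuclei with markers of at least 5 lineages were also left out as an alternative. Nuclei of the 3 libraries were clustered together (scanpy 1.11.5, 2000 variable genes, 30 components, 15 neighbours, Leiden resolution 1; Python 3.11.15) with all interferon genes removed. The 21 clusters were named from marker lists, and at least 3 markers were needed for a name. Lineage names are therefore rebuilt, not the authors'.

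UMIs were summed per library and lineage and divided by the summed UMIs (CPM). Levels have exact Poisson intervals, shares exact binomial (Clopper-Pearson) ones and ratios exact conditional ones, at 95%, all for counting error only. No test was made, with 1 library per group. A count of 0 was read as a limit of 3 counts per library. The ratio computation was tested on simulated data. Members and lists were chosen with earlier results of these data known. Named genes are the 9 members, up to 6 genes of the wider lists past 2-fold in each direction, every ligand, receptor and signal transducer, and the 5 genes of most similar profile; 1 of these genes is not reported here. Scaling, minimum counts, thinning to 500 UMIs, clustering and removal of nuclei were varied.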

Additional observations from a re-analysis of the deposited data

How the results depend on the processing

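No paired analysis was possible because each group is 1 library. The counts of members past 2-fold and the summed ratios were recomputed with doublet calls kept, other minimum counts, equal weight per nucleus, centring on the median gene, thinning and removal of nuclei. Without the Cxcl2 cluster (chosen after seeing the data), 1 member was past 2-fold higher in scaffold over untreated cord, where 2 were, and 1 in HGF scaffold over untreated cord, where 3 were, and the summed ratio of scaffold over untreated cord was 0.839. In both cases Ifit3 was the member left, since outside the cluster Isg15 had ratios of 1.40 and 1.47 and Gbp5 one of 1.92 for HGF scaffold over untreated cord. In HGF scaffold over scaffold cord 3 members were past 2-fold higher without the cluster, where 2 were. They were Ifit3 (2.01), Mx2 (2.03) and Gbp2 (2.16), while Gbp5 fell to 1.92. Without Ifit3, a sum also chosen later, the ratio was 0.761 for scaffold over untreated cord and 1.35 for HGF scaffold over untreated cord. Thinned to 500 UMIs, the summed ratio was 1.34 (0.987 to 1.80) for HGF scaffold over scaffold and 1.38 (1.02 to 1.85) for HGF scaffold over untreated cord, from 72, 129 and 130 UMIs in the HGF scaffold, scaffold and untreated libraries; the cause was not tested. Without mixed nuclei 1 member was past 2-fold higher in HGF scaffold over scaffold cord. Without thinning, the shares of nuclei with a member were 14.3%, 15.2% and 14.7% in the HGF scaffold, scaffold and untreated libraries, where thinning by construction leaves fewer UMIs. Of 30 lineage levels with at least 10 UMIs, 4 left their interval at a finer clustering (all higher). With nuclei named by their highest marker score 4 did (all lower), and without mixed nuclei 12 did (6 higher and 6 lower). With interferon genes kept for clustering, 0 of 23 did, but levels of the Cxcl2 cluster were not among the 23. At that setting no cluster was named from neutrophil markers. Cxcl2 then led a cluster of 112 nuclei named from myeloid markers and a cluster of 81 nuclei left unnamed. Depth limits most lineage values to counts under 20.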
